A study of Mus musculus with 21 samples.

Results

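The nuclear genes of respiratory complexes II to V were followed through pressure overload of the mouse left ventricle. All 49 rows of the 24054 in the deposited table were taken whose symbol is Sdha, Sdhb, Sdhc, Sdhd, Cyc1 or Cycs or begins with Uqcr, Cox4 to Cox8 or Atp5, with pseudogenes left out. Of these, 4 belong to complex II, 9 to complex III, 1 is cytochrome c, 18 belong to complex IV and 17 to complex V. Of the 49, 47 had enough counts to be tested. Cox7b2 had 0 to 5 counts per library, and Cox8c had 0 counts in all 21 libraries. Both are testis isoforms of complex IV subunits. Atp5s, Atp5sl and Cox7a2l carry the prefixes but are not core subunits, which leaves 44 tested subunits.

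RNA was sequenced from left ventricular myocardium of C57BL/6J mice, 1 library per animal. The groups were TAC without a drug (5 mice), TAC with the PDE5A inhibitor sildenafil (TAC+PDE5A-I, 5 mice), TAC with the PDE9A inhibitor PF-04449613 (TAC+PDE9A-I, 6 mice) and sham surgery without a drug (5 mice). TAC, transverse aortic constriction, narrows the aorta so that the left ventricle pumps against a higher load. The inhibitors were given for 4 weeks from 1 week after surgery, and both drugs raise cyclic GMP by blocking an enzyme that breaks it down. The sources used here give no dose, vehicle, age or sex. Each animal carries its own ear tag, so the p-values measure the spread between animals.

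Complex II passes electrons from succinate into the ubiquinone pool and is also an enzyme of the citric acid cycle. Complex III moves them on to cytochrome c, complex IV hands them to oxygen, and the proton gradient built by complexes I, III and IV drives complex V, the ATP synthase. The heart makes most of its ATP in this way. Several complex IV subunits are made from a heart and skeletal muscle gene and a widely expressed gene, and the c subunit of the ATP synthase ring comes from a set of genes that encode the same mature protein.

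Promoters are shown here because the members moved together while some isoform partners were not called. RefSeq promoters (GRCm38.p6) of 300 bases, 250 before and 50 after the start, were found for 38 of the 49 members. Windows of the 120 bases before the start follow for the muscle and the widely expressed gene of the Cox7a and Cox8 pairs, and then for 4 members that hold a searched motif. They are written on the gene's strand, and capitals mark a motif.
Cox7a1, muscle isoform, chr7:30184051-30184170, + strand: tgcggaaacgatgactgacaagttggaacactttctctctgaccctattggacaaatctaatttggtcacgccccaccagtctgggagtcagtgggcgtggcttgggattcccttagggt
Cox7a2, widely expressed, chr9:79759854-79759973, - strand: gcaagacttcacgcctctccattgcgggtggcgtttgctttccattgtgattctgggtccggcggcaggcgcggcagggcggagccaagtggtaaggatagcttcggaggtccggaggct
Cox8b, muscle isoform, chr7:140900447-140900566, - strand: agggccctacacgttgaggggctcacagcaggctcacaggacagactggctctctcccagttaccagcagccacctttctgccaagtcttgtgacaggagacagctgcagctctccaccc
Cox8a, widely expressed, chr19:7217617-7217736, - strand: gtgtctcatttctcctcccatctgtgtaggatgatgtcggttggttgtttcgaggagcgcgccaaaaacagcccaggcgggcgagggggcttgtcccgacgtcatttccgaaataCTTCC
Cycs, cytochrome c, chr6:50566570-50566689, - strand: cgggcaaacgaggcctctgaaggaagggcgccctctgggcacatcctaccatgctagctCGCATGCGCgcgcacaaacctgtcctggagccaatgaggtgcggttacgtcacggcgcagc
Atp5e, complex V, chr2:174464102-174464221, - strand: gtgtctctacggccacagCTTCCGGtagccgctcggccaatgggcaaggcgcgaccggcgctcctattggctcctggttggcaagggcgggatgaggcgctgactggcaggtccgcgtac
Atp5g3, complex V, chr2:73911327-73911446, - strand: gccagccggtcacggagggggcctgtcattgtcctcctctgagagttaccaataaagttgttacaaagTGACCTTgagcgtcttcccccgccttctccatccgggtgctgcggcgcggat
Cox6a1, widely expressed, chr5:115348959-115349078, - strand: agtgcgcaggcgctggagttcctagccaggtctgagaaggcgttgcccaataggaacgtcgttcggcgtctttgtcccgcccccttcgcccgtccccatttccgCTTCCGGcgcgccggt

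In Cox8a the capitals are the part of a motif that reaches the start. In the promoters of 300 bases, the muscle genes Cox7a1 and Cox8b held 7 and 2 CpG dinucleotides, and their partners Cox7a2 and Cox8a held 20 and 19. Of these genes only Cox8a was not called lower in TAC, and Cox6a2 had no promoter in the set. The median CpG count was 19 over the 38 members and 7 over all 32851 RefSeq promoters. Both strands were searched for GCGCATGCG (the site of NRF1, a known regulator of respiratory genes), CCGGAAG (an ETS site, bound by GABP), AAGGTCA (an estrogen-related receptor element), AAGATGGCG (YY1) and the MEF2 motif. NRF1 letters were in 7 of the 38 members (18.4%), against 1.95% of the 27025 genes with a promoter. The ETS letters were in 12 members (31.6%), against 9.93% of genes. The receptor element was in 5 members (13.2%), against 5.38%, and the YY1 letters in 3 (7.89%), against 1.64%. MEF2 letters were in 0 members, against 3.70% of genes. No hits of different motifs overlapped in a member. The NRF1, ETS and YY1 letters each hold a CpG, and the background of all genes was not matched for CpG content. The part of CpG content in the higher shares was not tested. These counts describe letters in a window and not binding.

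Library totals ran from 22.7 to 41.0 M counts, and the members took 2.44 to 3.73% of them. Rn45s, a ribosomal RNA row, took 0.326% in PDE9A inhibitor library 1 and 0.416% in library 4, above the other libraries. The 10 cardiomyocyte markers were all present, and summed to 157351 ± 21373 CPM (counts scaled to a common library size by TMM) in TAC and 196171 ± 14619 CPM in sham (SD, n = 5 each). In bulk tissue, fewer cells of a type and less RNA per cell cannot be told apart.

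In TAC, 41 of the 47 tested members fell and 0 rose, against 13.0% of the 14135 genes tested called lower and 12.2% called higher (edgeR quasi-likelihood test, Benjamini-Hochberg adjusted p under 0.05, as for every call here). The median log2 fold change of the members was -0.42, and -0.0013 over all genes tested. In 31 members every TAC library lay below every sham library, against 8.00% of all genes. Of the 41 called lower, Cox6b2 had the lowest fold change, but it passed the low-count filter only through the sham libraries. The other 40 changed by -17.5% to -39.8%, with a median of -25.8%. The summed level of all members was 27760 ± 4327 CPM in TAC and 37404 ± 2365 CPM in sham (SD, n = 5 each).

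The count was 22 without TAC library 3 and 22 without TAC library 4, where 2019 and 1781 of all genes were called in either direction, against 3558 with all libraries. The calls that were lost most often over 20 other settings were those of Cox6b1 (lost in 11), Sdhd (10), Uqcrfs1 (8) and Uqcrc2 (7), all still with a negative fold change, and each of the other 37 was lost in 1 to 6. Ear tags fall into a series under 200 and a series over 500, and the labels do not say what the series stand for. Within the tags over 500 (3 TAC, 2 sham) the median was -0.47. There 0 members and 0 of all genes were called, and 37 members and 25.7% of all genes had an unadjusted p under 0.05. Within the tags under 200 (2 TAC, 3 sham) the median was -0.34, with 1 member and 4.2% of all genes called and 34 members and 22.7% of all genes at that p.

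**Figure D1:**
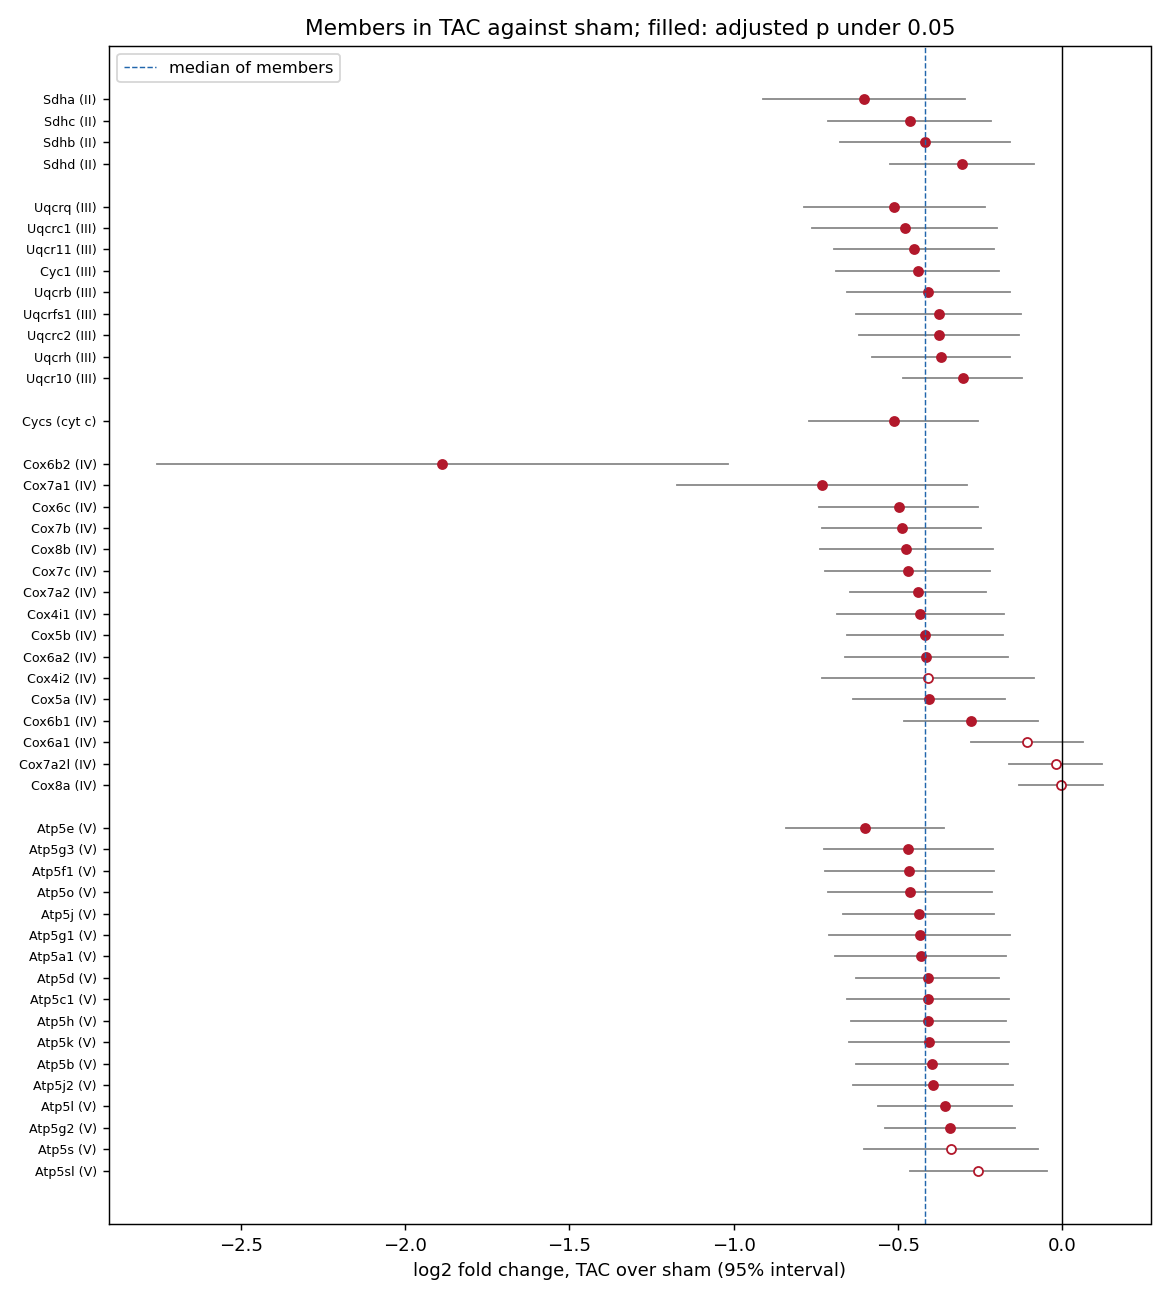
Log2 fold change of each of the 47 tested members in TAC over sham, with its 95% interval, by complex; filled points passed the adjusted threshold. Most members lie close to the median of -0.42, with Cox6b2 at -1.89 on the left and Cox8a at -0.00 on the right. Cox6b2 passed the low-count filter through the sham libraries, where it was high.

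All 4 subunits of complex II fell in TAC. Sdha, the flavoprotein that oxidises succinate, stood at 1041, 1501, 936, 846 and 1227 CPM in the TAC libraries, against 1799.9, 1633, 1644, 1796 and 1552 CPM in the sham libraries. The groups did not overlap, and TAC library 2 came nearest to sham. Its log2 fold change was -0.60 (SE 0.15, adjusted p = 0.00886). Sdhc, a membrane anchor of the complex, changed by -0.46 (SE 0.12, adjusted p = 0.0105). Sdhb, which carries the iron-sulfur clusters, changed by -0.42 (SE 0.12, adjusted p = 0.0202). Sdhd, the other anchor, had the highest adjusted p of the complex (0.0390), and its call was lost without any 1 of sham libraries 1 to 4 or TAC libraries 1, 3 or 4. It stood at 371, 384, 348, 314 and 415 CPM in TAC and at 505, 422, 452, 474 and 411 CPM in sham, where TAC library 5 reached above the lowest sham library.

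In complex III all 9 members fell, with log2 fold changes of -0.51 to -0.30, and cytochrome c fell with them. Cycs, the soluble carrier between complexes III and IV, stood at 768, 785, 757, 662 and 946 CPM in TAC, against 1176, 1130.1, 1127, 1167 and 989.6 CPM in sham. All TAC libraries lay below all sham libraries. The log2 fold change was -0.51 (SE 0.12, adjusted p = 0.00832). Among the small accessory subunits, Uqcr11 changed by -0.45 (SE 0.12, adjusted p = 0.0111) and Uqcrq by -0.51 (SE 0.13, adjusted p = 0.0111). The Rieske iron-sulfur protein Uqcrfs1 had the highest adjusted p (0.0288), with 618, 685, 518, 492 and 718 CPM in TAC and 834, 714, 783, 869 and 733 CPM in sham. TAC library 5 lay just above the lowest sham library for this gene. The calls of Uqcrfs1 and of Uqcrc2, a core protein of the complex, were lost without any 1 of sham libraries 1 or 4 or TAC libraries 1, 3 or 4, and that of Uqcrfs1 also without sham library 3.

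Complex V had 15 of 17 members lower and the other 2 not called. Atp5e, the epsilon subunit of the central stalk, had the lowest adjusted p of all members. It stood at 194, 259.8, 187, 184 and 242 CPM in TAC and at 349.8, 302, 361, 324 and 280.0 CPM in sham, and the groups did not overlap. Its log2 fold change was -0.60 (SE 0.12, adjusted p = 0.00317). Atp5j (coupling factor 6, in the peripheral stalk) changed by -0.44 (SE 0.11, adjusted p = 0.00970), and Atp5d (the delta subunit of the central stalk) by -0.41 (SE 0.10, adjusted p = 0.0102). The 2 members that were not called, Atp5s (adjusted p = 0.0552) and Atp5sl (adjusted p = 0.0663), are the 2 with the prefix that are not subunits of the enzyme. Atp5sl stood at 30.2, 31.4, 31.1, 29.2 and 34.3 CPM in TAC and at 38.5, 32.5, 39.6, 39.8 and 36.1 CPM in sham, and only TAC library 5 lay above the lowest sham library.

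Complex IV was the least uniform, with 12 of 16 tested members lower. Beside Cox6b2, the lowest adjusted p were those of Cox7a2 and Cox6c. Cox6c changed by -0.50 (SE 0.12, adjusted p = 0.00725) and Cox7a2 changed by -0.44 (SE 0.10, adjusted p = 0.00615). Cox4i2 (adjusted p = 0.0569), Cox6a1 (0.342), Cox7a2l (0.860) and Cox8a (0.976) were not called. Cox7a2l, which is not a core subunit, stood at 254, 276, 239, 235 and 266 CPM in TAC and at 269, 253, 270.4, 257 and 237 CPM in sham, with wide overlap. Its log2 fold change was -0.02 (95% interval -0.16 to 0.12), and its sign turned under upper quartile scaling.

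**Figure D2:**
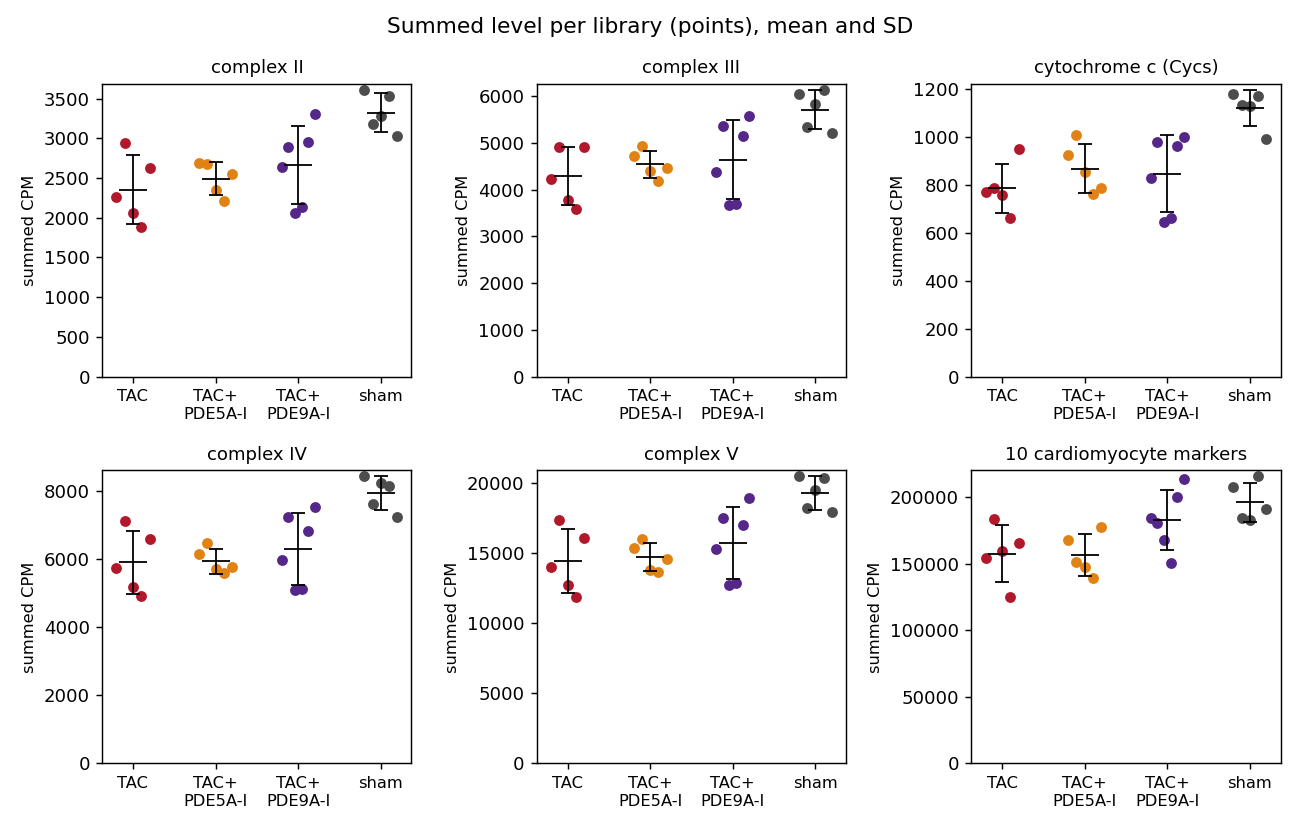
Summed CPM per library for complexes II, III, cytochrome c, IV and V and for 10 cardiomyocyte markers, with group means and SD, from 0. TAC libraries lie lower than sham libraries in each panel of the respiratory complexes, while the PDE9A inhibitor libraries reach from the TAC range up to the sham range.

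The isoform pairs were then compared within each library, and none of their ratios passed after adjustment. In the Cox8 pair, which sits on the core of complex IV, the muscle gene Cox8b stood at 294, 368, 263, 255 and 329 CPM in TAC and at 449, 375, 445, 434 and 392 CPM in sham, without overlap. Cox8b fell by 0.47 on the log2 scale (adjusted p = 0.0126). Its partner Cox8a stood at 114, 93.8, 108, 108 and 116 CPM in TAC and at 111, 107, 112, 111 and 100.3 CPM in sham, with full overlap. The log2 fold change of Cox8a was -0.00 (95% interval -0.13 to 0.12), and its sign turned under upper quartile scaling (0.02). The count ratio of Cox8b to Cox8a was 2.58, 3.93, 2.44, 2.36 and 2.83 in TAC and 4.05, 3.50, 3.98, 3.92 and 3.91 in sham. TAC library 2 lay in the sham range and the others below it. The difference of the log2 ratios was -0.48 (two-sided exact permutation test, p = 0.0317, adjusted p = 0.169 over 48 tests of 8 ratios in 6 comparisons).

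The Cox7a pair covers a subunit at the interface of the complex IV dimer. Cox7a1, the muscle gene, stood at 397, 602, 301, 269.8 and 468 CPM in TAC and at 703, 666, 691, 711 and 611 CPM in sham. Cox7a2 stood at 237, 290.2, 224, 215 and 286 CPM in TAC and at 351, 320.3, 367, 344 and 315 CPM in sham. Neither gene's groups overlapped, and in both TAC libraries 2 and 5 were the highest. Cox7a1 changed by -0.73 (adjusted p = 0.0182) and Cox7a2 by less. The log2 ratio of Cox7a1 to Cox7a2 differed by -0.34 between TAC and sham (exact permutation p = 0.0397, adjusted p = 0.190).

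For the Cox6a pair, Cox6a2 of muscle stood at 637, 838, 555, 524 and 718 CPM in TAC and at 954, 864, 886, 875 and 779 CPM in sham. TAC library 2 alone overlapped sham, and the gene fell by 0.41 on the log2 scale (adjusted p = 0.0181). Cox6a1 stood at 55.5, 43.9, 51.6, 57.5 and 53.2 CPM in TAC and at 57.7, 54.3, 60.2, 58.1 and 51.5 CPM in sham, with overlap. The difference of the log2 ratios was -0.32 (exact permutation p = 0.119). TAC library 2 was the TAC library that lay within or above the sham range of the Cox6a, Cox7a and Cox8 ratios, at 19.1, 2.07 and 3.93. Without it these groups are apart by that choice of library, so their exact p is then the smallest possible (adjusted p = 0.0476, also for the Cox6b ratio), which is no support for a difference.

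Cox6b2, an isoform known from testis, was close to the limit of detection. It had 8, 5, 4, 6 and 4 counts in the TAC libraries and 22, 17, 13, 35 and 18 counts in the sham libraries, which is 0.128 to 0.275 CPM in TAC and 0.484 to 0.929 CPM in sham. The log2 fold change was -1.89 (SE 0.42, adjusted p = 0.00548) and the groups did not overlap. Cox6b2 passed the low-count filter through the sham libraries, where it was high. Its call and its lack of overlap are therefore no support for a fall. Cox6b1, its partner in the heart, stood at 521, 575, 469, 474 and 561 CPM in TAC and at 658, 601, 663, 654 and 576 CPM in sham, just without overlap, and fell by 0.28 on the log2 scale (adjusted p = 0.0444). This call was lost without any 1 of sham libraries 1 to 4 or TAC libraries 1, 3 or 4, at adjusted p of 0.0613 to 0.125. In the Cox4i pair, Cox4i2 was a minor isoform at 3.27 to 5.63 CPM in TAC and 5.11 to 6.89 CPM in sham. Its partner Cox4i1 stood at 1017, 1317, 909, 835 and 1156 CPM in TAC and at 1524, 1373, 1456, 1438 and 1265 CPM in sham, and fell by 0.43 on the log2 scale (adjusted p = 0.0167).

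All 3 genes of the c ring fell by like amounts. Atp5g1 stood at 913, 1008, 827, 769 and 1009 CPM in TAC and at 1284, 1108, 1276, 1340.5 and 1107 CPM in sham. Atp5g2 stood at 146, 185, 135, 141 and 186 CPM in TAC and at 205, 193, 205, 200.3 and 200.5 CPM in sham. Atp5g3 stood at 612, 707, 575, 515 and 704 CPM in TAC and at 946, 806, 837, 922 and 795 CPM in sham. None of the 3 overlapped between groups, and their log2 fold changes were -0.43, -0.34 and -0.47. Per length of annotated transcript (2675 bases for Atp5g1, 586 for Atp5g2 and 718 for Atp5g3), Atp5g3 held 58.8 ± 0.811% of the set in TAC and 60.0 ± 1.06% in sham. By counts, Atp5g1 lay above Atp5g3, with ratios of 1.43 to 1.49 in TAC and 1.36 to 1.52 in sham. The order of these genes therefore rests on the annotated lengths, which may not be those of the transcripts in these hearts.

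**Figure D3:**
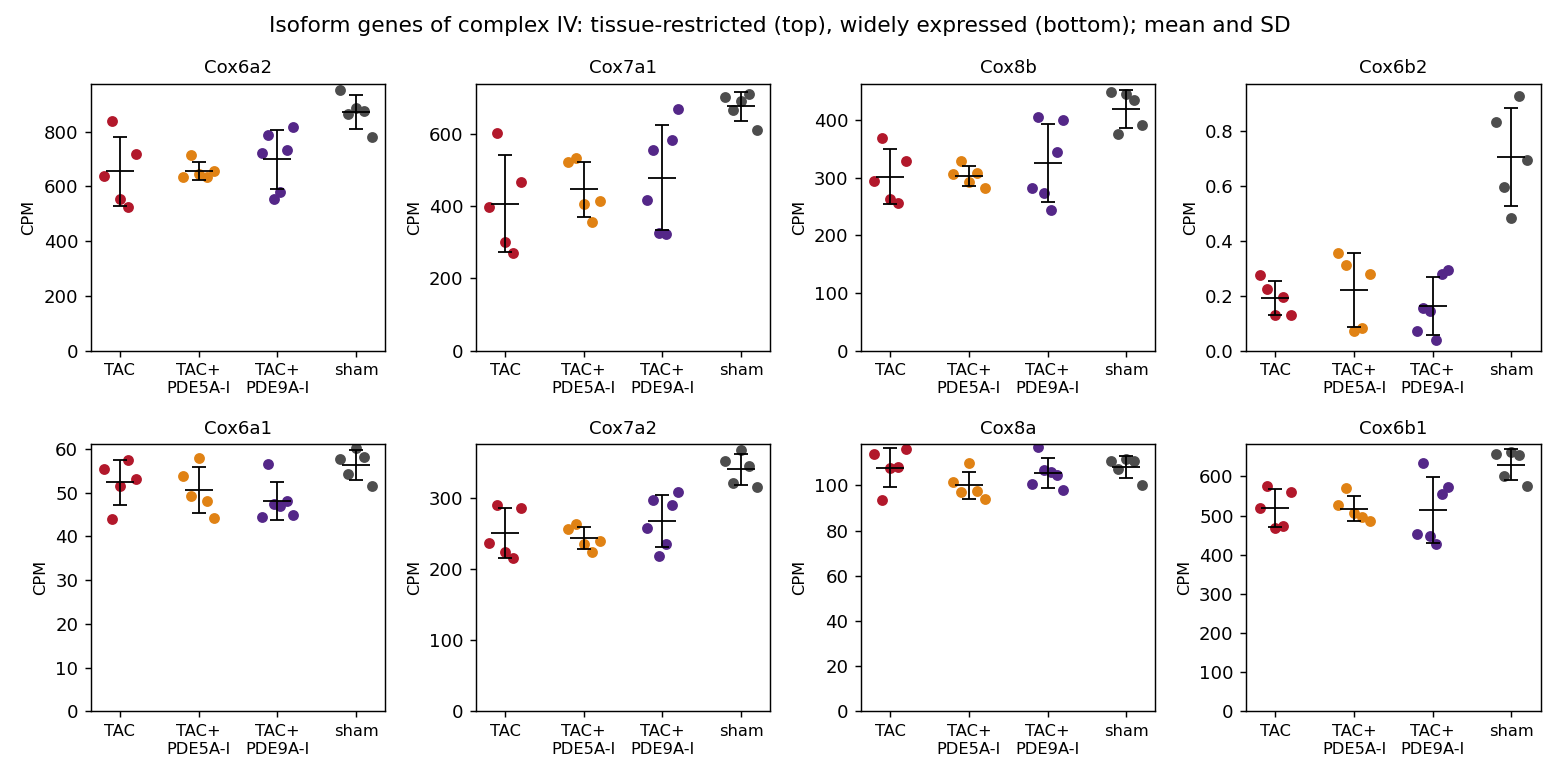
CPM per library, with group means and SD, of the tissue-restricted genes of 4 complex IV pairs (top) and their widely expressed partners (bottom). Cox8a and Cox6a1 overlap across all groups, while Cox8b and Cox7a1 lie lower in TAC than in sham.

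Counts per transcript kilobase put the muscle isoforms ahead in each pair of muscle and widely expressed genes. Cox6a2 held 91.0 ± 2.13% of its pair in TAC and 92.8 ± 0.311% in sham, Cox7a1 held 72.3 ± 3.94% in TAC and 77.0 ± 0.756% in sham, and Cox8b held 80.8 ± 2.98% in TAC and 85.5 ± 0.727% in sham (SD, n = 5 each). Among the 47 members with a transcript length, Atp5b, the catalytic beta subunit, had the highest level per kilobase, at 2256 ± 394 CPM per kilobase in TAC and 2969 ± 156 in sham.

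A library was often high or low for most members at once. TAC library 4 was the lowest of its group for 40 of 47 members, and TAC library 2 the highest for 29. Sham library 5 was the lowest sham for 39. The median coefficient of variation over the members was 15.5% in TAC, 6.74% in TAC+PDE5A-I, 17.6% in TAC+PDE9A-I and 7.15% in sham.

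Fibroblast markers differed in the same libraries. All 7 rose in TAC, and their sum was 3284, 2303, 4344, 5093 and 2521 CPM in TAC libraries 1 to 5 and 1156 to 1517 CPM in sham. The members' sum in TAC libraries 1 to 5 was 27030, 33157, 24481, 22973 and 31161 CPM, so the library with the most fibroblast marker RNA had the least of the members. Of the cardiomyocyte markers, 5 of 10 fell and 0 rose, with a median log2 fold change of -0.37. Cox6a2, Cox7a1 and Cox8b are also genes of skeletal muscle, and Cox7a1 and Cox8b of brown fat. Of 5 skeletal muscle markers only Ckm, which the heart also makes, passed the filter on low counts, and it fell. The 4 brown fat markers summed to 40.7 ± 2.21 CPM in TAC and 39.5 ± 2.51 CPM in sham (SD, n = 5 each), where Cidea rose and Pparg fell. Of 4 activated fibroblast markers all rose, with a median log2 fold change of 4.15, and they summed to 1080, 341, 2434, 3082 and 613 CPM in TAC libraries 1 to 5 and to 75.0 to 119 CPM in sham. All 4 B cell markers rose (median 1.07) at a low sum of 3.04 to 5.02 CPM in TAC and 0.983 to 2.59 CPM in sham. All 5 erythroid markers had negative values (median -0.76) with 4 at an unadjusted p under 0.05 and 0 called. The endothelial, smooth muscle and pericyte, macrophage (4 of 5 tested), T cell (2 of 3 tested) and atrial (1 of 3 tested) markers gave 0 calls. The part of these shifts in the fall of the members was not tested.

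Related genes outside the rule gave a range, beside 13.0% of all genes called lower in TAC and 12.2% called higher. Complex I subunits taken by symbol had 30 of 36 lower and 0 higher, with a median of -0.41. Subunits with other symbols had 4 of 6 lower, among them Ndufa4 (-0.45) and Usmg5 (-0.48), now placed in complexes IV and V. Assembly factors had 7 of 32 lower and 1 higher, with a median of -0.15. Hccs, which attaches haem to cytochrome c, changed by -0.41, and Cox19, a copper-handling factor, rose by 0.44. Of 11 regulators 4 fell: Ppargc1a (-0.61) and Ppargc1b (-0.43), both coactivators of mitochondrial biogenesis, Esrra (-0.37) and Gabpa (-0.27). Gabpa lies on the strand opposite to Atp5j.

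No member was called in TAC+PDE5A-I against TAC. The share of all genes called there was 0.0141%. An unadjusted p under 0.05 was found for 0 members and 5.17% of all genes. The median log2 fold change was 0.04, and the lowest adjusted p was 0.962. Sdha stood at 1318, 1285, 1066, 1023 and 1267 CPM in TAC+PDE5A-I, within the range of TAC, with a difference of 0.10 (95% interval -0.20 to 0.41). Atp5e stood at 234, 249.7, 221, 208 and 228 CPM, also within the TAC range, with a difference of 0.10 (95% interval -0.14 to 0.33). For Cox7a1 the values were 521, 533, 406, 358 and 414 CPM and the difference 0.13 (95% interval -0.31 to 0.57). These intervals include 0 and, for these 3 genes, rises of the size of a part of the fall in TAC.

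For TAC+PDE9A-I against TAC, 0 members were called, against 0.00707% of all genes. An unadjusted p under 0.05 was found for 0 members, against 14.6% of all genes. The median was 0.10, 40 of the 47 values were above 0, and the lowest adjusted p was 0.413, for Sdha. Sdha ran from 1004 over a median of 1346 to 1691 CPM in TAC+PDE9A-I, a difference from TAC of 0.25 (95% interval -0.05 to 0.54). Cox7a1 ran from 323 over a median of 486 to 669.9 CPM, which spans most of the distance between the lowest TAC and the highest sham library. Its difference was 0.23 (95% interval -0.19 to 0.65). When 1 library was left out, the median of the members ran from 0.0393 (without TAC+PDE9A-I library 6) to 0.161 (without TAC library 2). DESeq2 called 0 members in either comparison with TAC.

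Between the inhibitors, TAC+PDE5A-I against TAC+PDE9A-I, 0 members were called, against 0.00707% of all genes. An unadjusted p under 0.05 was found for 0 members, against 10.4% of all genes. The median was -0.05 and the lowest adjusted p 0.540. For Cycs, TAC+PDE5A-I stood at 924, 1008, 852, 762 and 788 CPM, and TAC+PDE9A-I ran from 646 over a median of 894 to 998 CPM. The groups overlapped, with TAC+PDE5A-I library 2 above all TAC+PDE9A-I libraries and TAC+PDE9A-I libraries 3 and 4 below all TAC+PDE5A-I libraries.

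Both inhibitor groups were then set against the same sham libraries, which the TAC comparison also uses. In TAC+PDE5A-I, 29 of 47 members fell, against 7.80% of all genes, with a median of -0.40. All TAC+PDE5A-I libraries lay below all sham libraries for 38 members, against 8.75% of genes. Cox6b2 is among the 38 but passed the low-count filter through the sham libraries, so it gives no support for a fall. The lowest adjusted p was that of Cox7b, a small subunit of complex IV, at -0.59 (SE 0.12, adjusted p = 0.00652). The count was 9, 19, 13 and 11 without sham library 1, 2, 3 or 4, and 8, 7 and 11 without TAC+PDE5A-I library 3, 4 or 5. Calls over all genes in either direction were 2066 with all libraries and 580 to 1205 in these settings. The count of members was 3 in a fit with a term for ear tag series, where 441 genes were called in all, and all 5 TAC+PDE5A-I mice have tags over 500.

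In TAC+PDE9A-I, 3 of 47 members fell against sham, against 1.65% of all genes, with a median of -0.32. They were Cox6b2 (-2.12, adjusted p = 0.0184), Atp5e (-0.46, adjusted p = 0.0301) and Cox7a2 (-0.35, adjusted p = 0.0480). Of these, Cox6b2 passed the low-count filter through the sham libraries. Groups without overlap were seen for 4 members, against 1.87% of genes. An unadjusted p under 0.05 was found for 44 members, against 27.2% of all genes. The lower count does not show a difference from TAC+PDE5A-I, since 0 members were called between the inhibitors.

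**Figure D4:**
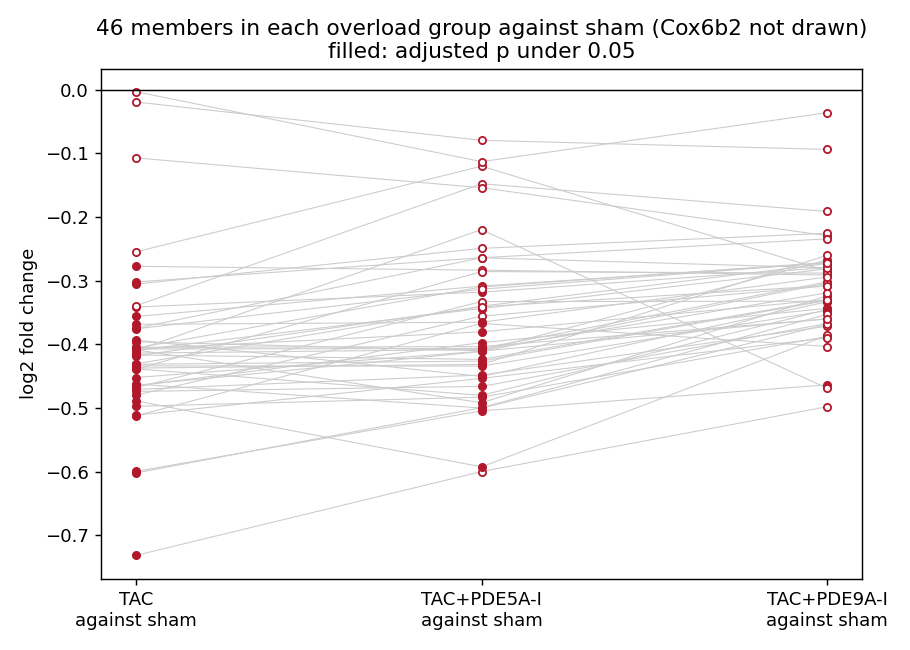
Log2 fold change against sham of 46 members (Cox6b2 is not drawn) in TAC, TAC+PDE5A-I and TAC+PDE9A-I; lines join a gene, filled points passed the adjusted threshold. All comparisons share the sham libraries; the medians over all 47 tested members are -0.42, -0.40 and -0.32.

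The TAC+PDE9A-I animals differed widely from each other, as the TAC animals did. Relative to the sham mean, the median over the 47 members was -0.387, -0.135, -0.630, -0.627, -0.190 and -0.068 on the log2 scale in libraries 1 to 6. Libraries 1, 3 and 4 lay below the lowest sham library for 46 members each, library 5 for 40, library 2 for 21 and library 6 for 8. The fibroblast marker sum in the same libraries was 2362, 2097, 4521, 5212, 1737 and 1273 CPM, highest in libraries 3 and 4 and lowest in 6. The member median ran from -0.684 to -0.205 in TAC and from -0.478 to -0.248 in TAC+PDE5A-I. Without TAC+PDE9A-I library 6 the number of members called against sham was 38, without library 2 it was 22, without library 5 it was 7, without library 3 it was 0, and without library 1 or 4, or sham library 1, 2, 3 or 4, it was 1. It was 0 without libraries 1 and 4 together, those with the high Rn45s share. Calls over all genes moved with it: 540 genes were called in either direction with all libraries, 1814 without library 6, 1340 without library 2, 893 without library 5 and 29 without library 3.

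**Figure D5:**
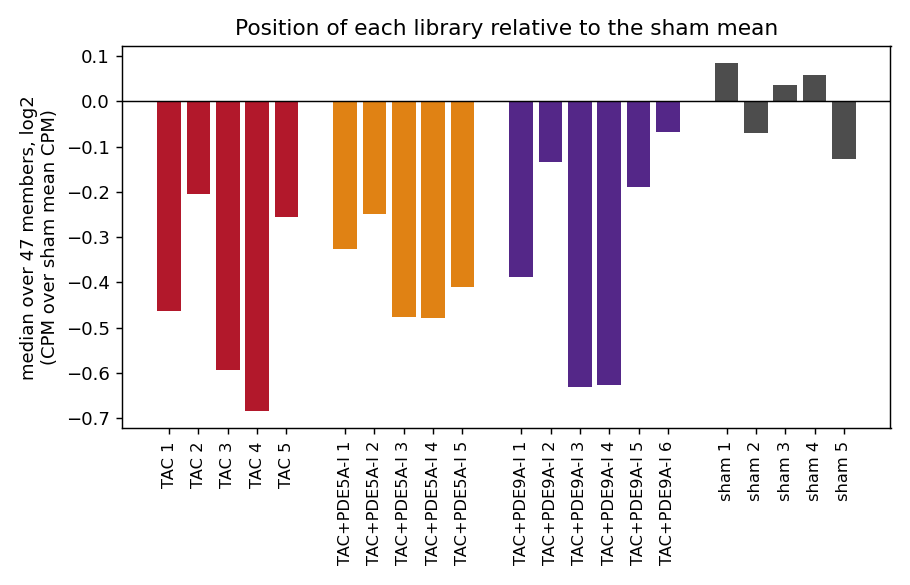
Median over the 47 tested members of the log2 CPM relative to the sham mean, 1 bar per library. TAC+PDE9A-I libraries run from -0.630 to -0.068 and TAC libraries from -0.684 to -0.205, both wider ranges than the TAC+PDE5A-I libraries at -0.478 to -0.248.

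In the Cox8 pair of the treated groups, the count ratio of Cox8b to Cox8a was 3.02, 3.38, 2.66, 3.15 and 2.99 in TAC+PDE5A-I and ran from 2.30 over a median of 3.05 to 4.08 in TAC+PDE9A-I, against 3.50 to 4.05 in sham. All TAC+PDE5A-I libraries lay below all sham libraries (difference -0.35, exact permutation p = 0.00794, the smallest that 5 against 5 can give, adjusted p = 0.0762). In the c ring, the log2 ratio of Atp5g1 to Atp5g3 differed by -0.14 between TAC+PDE5A-I and TAC, without overlap (exact permutation p = 0.00794, adjusted p = 0.0762). Of the 48 tests of ratios 0 passed after adjustment.

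The expected counts assign shared reads by a model. Values with decimals, which mark such assignment, made up 72.9% of the members' values and 19% of all values, and 13 members had decimals in every library, among them Atp5g3, Sdha and Cox4i1. In GENCODE, 13 members overlap a gene on the opposite strand, among them Sdha, Cox6a2 and Cox6c, and Cox4i1 overlaps Gm20388 on its own strand. The sources used here do not say whether counting used the strand, so values of these members are less certain. Sdha lies at chr13:74322254-74350280, Cycs at chr6:50562563-50566538, Atp5e at chr2:174461072-174464105, Cox7a1 at chr7:30184144-30186078 and Cox8b at chr7:140898945-140900446 (GRCm38), exons and introns together, and all are annotated as protein-coding.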

How the data were processed

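The authors deposited RSEM expected counts per gene symbol as 1 table of 24054 rows and 21 columns, 1 for each library, not scaled between libraries. The submitters' processing notes name RSEM 1.3.0, HISAT2 2.0.5, the build mm10, CASAVA 1.8.4 and, for DESeq2, version 1.18.1, with neither role nor order. Libraries were stranded total RNA from 500 ng, per the labels' protocols. Of the rows, 27 carry a date for a symbol.

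Expected counts were rounded, filtered with filterByExpr by group, scaled by TMM and fitted in 1 quasi-likelihood model of all 21 libraries (edgeR 4.0.16, R 4.3.3). P-values were adjusted over the 14135 genes tested. Library totals were 22.7 to 41.0 M counts. Ratios used a pseudocount of 0.5 counts and exact permutation tests. Alternatives were other scalings, no filter, DESeq2 1.42.0, a replicate block, the ear tag series, only the groups compared, and leaving out each library. The scripts were tested on simulated data. Members named with every library's value are, per complex, those with the lowest adjusted p among called members and the highest adjusted p, those with the extreme folds, and the isoform sets. Cox7a2l, Cox7b, Atp5b and the overlapping genes were added after their values were seen. Members and lists were chosen with earlier results of these data known. Positions come from GENCODE release M21, promoters from RefSeq.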

Additional observations from a re-analysis of the deposited data

Results flagged for a closer look

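In groups of 4 to 6 libraries, 6 of 220 sets of member values or ratios held 1 library far from the others (Dixon's criterion, which flags about 1 in 20 by chance, or 11 here). In TAC+PDE5A-I library 2, Cox6a2 was 715 CPM (others 632.6 to 655.2) and Uqcr11 was 413 CPM (others 365.1 to 378.9). In TAC+PDE9A-I, Cox6a1 was 56.66 CPM in library 2 (others 44.5 to 48.13) and Atp5sl was 22.7 CPM in library 4 (others 30.68 to 35.11). In sham, Cycs was 989.6 CPM in library 5 (others 1127 to 1176), and the ratio of Cox8b to Cox8a was 3.5 in library 2 (others 3.908 to 4.049).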

How the results depend on the processing

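The number of members called in TAC against sham ran from 22 to 43 when 1 library was left out, and was 43 with a replicate block, 43 with DESeq2, 39 with a term for ear tag series, 0 with ear tags over 500 only and 1 with ear tags under 200 only, settings that hold fewer libraries. Of all genes, 25.2% were called there with all libraries and 12.6 to 31.2% without 1 library. The share was 27.6% with a replicate block, 21.9% with DESeq2 and 21.9% with the series as a term. With tags over 500 only it was 0%, and with tags under 200 only 4.2%. For TAC+PDE5A-I against sham the number of members was 7 to 33 without 1 library, 3 with the series as a term and 0 with tags over 500 only. Of all genes, 14.6% were called there with all libraries, 4.08 to 16% without 1 library and 3.12% with the series as a term. For TAC+PDE9A-I against sham the number of members was 0 to 38 without 1 library, 20 with DESeq2 and 42 with the replicate block. It was 1 with the series as a term and 0 with only the groups compared. Without both libraries high in Rn45s, or with tags over 500 only, it was 0. Only TAC+PDE9A-I has a replicate 6, so the block gives that library its own term, which drops it as leaving it out does (38 called). Of all genes, 3.82% were called with all libraries, 0.148 to 12.8% without 1, 8.1% with DESeq2 and 15.9% with the block. The share was 0.764% with the series as a term and 0.124% with only the groups compared. The cause of the other changes was not tested. Ear tag subsets and the Rn45s setting were chosen after seeing the data. Over 30 same-numbered pairs of libraries from different groups, correlations ran from -0.273 to 0.632, and 8 pairs correlated above 0.1. Differently numbered pairs were not compared, so these values cannot decide whether replicate numbers pair the samples. The members called in the comparisons with TAC and between the inhibitors stayed at 0 in every setting run. No 2 libraries of the same group agreed within sampling noise (45 pairs, chi-square per degree of freedom at least 12.1). Pairs across groups were not compared.

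The Cox8a fold turned positive with upper quartile scaling (0.0213), only the groups compared (0.0082), without both libraries high in Rn45s (0.0067) and with tags over 500 (0.0670), and ran from -0.0298 to 0.0524 without 1 library. Cox7a2l reached 0.0046 with upper quartile scaling and 0.0164 with tags under 200, and ran from -0.0476 to 0.0172 without 1 library. The median of TAC+PDE5A-I against TAC+PDE9A-I was -0.11 to 0.0068 without 1 library. It was 0.0119 with the replicate block, which again drops TAC+PDE9A-I library 6. Without 1 library, the median of TAC+PDE5A-I against TAC was -0.0133 to 0.0941, and that of TAC+PDE9A-I against TAC 0.0393 to 0.161. Log2 ratio differences in TAC without 1 library ran from -0.0571 to 0.0974 (Cox4i2 to Cox4i1), -0.48 to -0.21 (Cox6a2 to Cox6a1), -0.44 to -0.26 (Cox7a1 to Cox7a2), -0.60 to -0.42 (Cox8b to Cox8a) and -1.68 to -1.39 (Cox6b2 to Cox6b1).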
